A study of Mus musculus with 6 samples.

Results

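Transcripts of 10 genes of the red cell lineage were examined in sorted mouse haematopoietic stem cells (HSCs): the adult globins Hba-a1, Hba-a2, Hbb-bs and Hbb-bt, the haem enzyme gene Alas2, the regulator genes Klf1 and Gata1, the receptor gene Epor and the carbonic anhydrase genes Car1 and Car2. The genes were chosen by symbol, and each matched 1 of the 49585 rows of the count tables. All 10 passed the filter on low counts, which left 14785 genes. Bone marrow cells came from untreated C57BL/6 mice of 8 to 16 weeks. HSCs were gated as lineage-negative cells with Kit, Sca-1, CD150 and CD201 and without CD48 and CD34, and were then divided by surface CD38. There were 3 CD38-positive and 3 CD38-negative libraries, each from the pooled cells of 10 mice, and the design text joins them into 3 pairs. Whether partners share mice is not stated there, and p-values measure only the spread between these pools.

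Red cell production starts when a stem or progenitor cell switches on the transcription factors GATA1 and KLF1 and places the erythropoietin receptor on its surface. Early erythroid progenitors then make carbonic anhydrases, and erythroblasts make haem, for which ALAS2 carries out the first and rate-limiting step, and finally very large amounts of alpha and beta globin mRNA. A stem cell can carry low levels of the early regulators without having entered the lineage, which is often called priming, whereas globin mRNA is typical of late erythroblasts, reticulocytes and RNA released from them. In a bulk library, fewer cells of a type and less RNA per cell cannot be told apart.

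The adult globin genes are duplicated, and the sequences show how far reads can be given to one copy. The coding parts of Hba-a1 and Hba-a2 have 426 bases each and differ by 1 substitution, C381T, and those of Hbb-bs and Hbb-bt have 441 bases and differ by 1, C417T (the first gene's base, its position counted from the first base of the start codon, then the second gene's base). The stretches around these positions are shown because only such bases tell the copies apart within the coding part; the base that differs is in capitals.
Hba-a1: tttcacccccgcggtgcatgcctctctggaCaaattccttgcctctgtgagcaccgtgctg
Hba-a2: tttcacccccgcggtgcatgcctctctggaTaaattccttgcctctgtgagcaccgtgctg
Hbb-bs: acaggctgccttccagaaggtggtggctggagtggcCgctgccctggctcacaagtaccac
Hbb-bt: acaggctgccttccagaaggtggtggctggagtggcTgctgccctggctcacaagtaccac
Of the 50-base windows of the Hba-a1 transcript, 67.5% also occur in Hba-a2, and 86.9% of those of Hba-a2 occur in Hba-a1. For the beta pair the shares were 65.8% of the windows of Hbb-bs and 58.3% of those of Hbb-bt. No window was shared between Hba-a1 and Hbb-bs. The handling of reads that match both copies is not given in the sources used here. The value of a single copy is therefore uncertain, and each pair was also tested as a sum. If such reads were left out of the counts, a sum does not bring them back. The globin levels and the adult globin share would then be too low. The antisense gene Apex2 overlaps Alas2 and had 378 to 849 reads a library, so reads of the 2 genes cannot be told apart there if strand was not used.

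Promoters were available for 8 of the 10 genes, all but Car1 and Car2 (RefSeq, GRCm38.p6). The 250 bases before the RefSeq start are shown for 1 alpha globin, 1 beta globin, the haem enzyme and the regulators. These are the groups whose levels are set against each other in what follows. RefSeq starts differ from the gene positions given further on, which are from GENCODE. Each window shown reaches into the span given there for its gene, and that of Gata1 lies wholly inside it. Capitals mark matches on either strand to the GATA letters (AGATAA, or its relatives AGATAG, then TGATAA and also TGATAG), to CCNCNCCC (the type of letters bound by KLF1, which includes CCACACCC), to TATAAA and to CCAAT.
Hba-a1 (chr11:32283422-32283671, plus strand): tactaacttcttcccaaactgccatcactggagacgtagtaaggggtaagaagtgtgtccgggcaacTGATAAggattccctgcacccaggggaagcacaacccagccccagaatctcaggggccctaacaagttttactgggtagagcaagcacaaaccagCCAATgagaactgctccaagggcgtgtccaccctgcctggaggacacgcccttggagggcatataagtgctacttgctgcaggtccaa
Hbb-bs (chr7:103827929-103828178, minus strand): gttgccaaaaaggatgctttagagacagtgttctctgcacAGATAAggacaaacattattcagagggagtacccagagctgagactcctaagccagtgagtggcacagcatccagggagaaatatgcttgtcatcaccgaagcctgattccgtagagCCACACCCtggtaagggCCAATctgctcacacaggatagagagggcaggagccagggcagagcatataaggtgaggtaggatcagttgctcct
Alas2 (chrX:150547167-150547416, plus strand): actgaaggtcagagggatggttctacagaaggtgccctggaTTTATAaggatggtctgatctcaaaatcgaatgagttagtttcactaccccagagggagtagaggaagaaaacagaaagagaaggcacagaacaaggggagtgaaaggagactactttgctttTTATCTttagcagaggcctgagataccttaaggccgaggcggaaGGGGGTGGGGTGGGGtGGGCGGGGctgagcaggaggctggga
Klf1 (chr8:84901732-84901981, plus strand): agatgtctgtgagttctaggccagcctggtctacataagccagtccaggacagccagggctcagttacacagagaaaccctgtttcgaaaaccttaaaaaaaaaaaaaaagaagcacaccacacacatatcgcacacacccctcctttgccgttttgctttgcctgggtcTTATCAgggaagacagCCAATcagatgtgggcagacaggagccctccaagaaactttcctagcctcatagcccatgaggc
Gata1 (chrX:7967911-7968160, minus strand): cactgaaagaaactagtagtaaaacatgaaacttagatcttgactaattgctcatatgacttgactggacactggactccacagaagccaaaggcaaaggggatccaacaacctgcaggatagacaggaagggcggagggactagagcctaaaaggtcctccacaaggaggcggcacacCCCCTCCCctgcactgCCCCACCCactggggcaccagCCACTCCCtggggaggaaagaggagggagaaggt
A GATA match was found in 6 of the 8 windows, against 26.5% of all 32851 promoter windows of this length. The window of Hbb-bs had it 210 bases before the start and those of Alas2 and Klf1 at 86 and 80 bases. The windows of Hbb-bt and Gata1 held none. CCNCNCCC was found in 5 of 8 (45.9% of all windows) and the longer CCACACCC in 1, Hbb-bs, 93 bases before the start (3.2% of all windows). CCAAT was found in 5 of 8 (33.9% of all windows) and TATAAA in 2 (12.4%). No window held a GATA match with CANNTG 8 to 11 bases away (1.35% of all windows). The windows of Hba-a1 and Hba-a2 were 97.6% identical and count as nearly the same sequence, and those of Hbb-bs and Hbb-bt were 68.4% identical. These matches describe letters and do not show binding.

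Library totals ranged from 16771180 to 18558610 counts, so 3 counts correspond to 0.166 to 0.183 CPM (counts scaled to TMM-adjusted library size). The 12 HSC marker genes were all detected, with Procr (CD201) at 33.2 to 67.5 CPM and Slamf1 (CD150) at 22.2 to 50.4 CPM. A list of 14 granulocyte and monocyte genes took 8.23% to 15.9% of all counts, although the gate was lineage-negative, and 12 mast cell, basophil and eosinophil genes took 0.122% to 0.231%. All genes of these lists were detected in every library. The granulocyte share was 15.9% and 12.6% in pair 1, 8.23% and 9.3% in pair 2 and 10.9% and 13.4% in pair 3 (CD38-positive first), and the part of such cells in the erythroid results was not tested.

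Adult globin mRNA was present in every library, at a level that differed more between pairs than between populations. The 4 genes together took 0.686%, 0.306% and 0.217% of counts in the CD38-positive libraries of pairs 1, 2 and 3, and 0.602%, 0.502% and 0.266% in their CD38-negative partners. Both libraries of pair 1 were above all others and both of pair 3 below them. CD38-positive libraries averaged 0.403% ± 0.249 (SD, n = 3), and CD38-negative libraries averaged 0.456% ± 0.172 (SD, n = 3), so the means differed by less than either SD. CD38-positive cells had the higher share in 1 of 3 pairs. Exact (Clopper-Pearson) 95% intervals reached at most 0.00376 percentage points to either side; they describe counting error alone, because these reads carry no molecular identifiers.

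Hbb-bs (ENSMUSG00000052305, GRCm38 chromosome 7, 103826534 to 103828096, minus strand), an adult beta globin gene, was the most abundant of them. It had 4197, 1603 and 1185 CPM in the CD38-positive libraries of pairs 1, 2 and 3, and 3377, 2450 and 1440 CPM in the CD38-negative ones. It ranked between 18 and 57 among all genes by reads. The populations overlapped fully, and the fitted log2 fold change, CD38-positive relative to CD38-negative, was -0.19 (95% interval -0.69 to 0.30). Hbb-bt (ENSMUSG00000073940, chromosome 7, 103812524 to 103813996, minus strand), its neighbour in the same cluster, had 1411, 517 and 336 CPM against 1209, 858 and 402 CPM. Its order over the 6 libraries was the same as that of Hbb-bs, and its log2 fold change was -0.26 (95% interval -0.73 to 0.22).

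Hba-a1 (ENSMUSG00000069919, chromosome 11, 32283511 to 32284465, plus strand), an alpha globin gene, had 1135, 490 and 305 CPM in CD38-positive and 904, 795 and 566 CPM in CD38-negative libraries. Hba-a2 (ENSMUSG00000069917, chromosome 11, 32296489 to 32297298, plus strand) had 884, 363 and 223 CPM against 636, 576 and 358 CPM. Both were highest in the CD38-positive library of pair 1 and lowest in that of pair 3. Their log2 fold changes were -0.42 (95% interval -0.95 to 0.10) and -0.29 (95% interval -0.82 to 0.23). With the reads of both copies summed, the alpha genes had -0.37 (edgeR adjusted p = 0.929) and the beta genes -0.21 (edgeR adjusted p = 0.943).

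The balance between globin copies was steadier than their level. Hbb-bs had 2.79 to 3.58 reads per read of Hbb-bt, a range of 1.28-fold, while its own CPM ranged 3.54-fold. Both pair 3 libraries had the highest ratio, at 3.53 and 3.58. Hba-a1 had 1.28 to 1.58 reads per read of Hba-a2 and the ratio was lower in CD38-positive cells in 3 of 3 pairs. Beta globin reads per alpha globin read ranged from 1.995 in the CD38-negative library of pair 3 to 2.98 in that of pair 1. These ratios were not tested.

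The embryonic and minor globins set the adult genes apart. Hbq1b, a theta globin gene, was the 1 of 6 such genes that passed the filter, with 20 to 73 reads a library. Hbb-bh2 had no read in any library, and Hba-x, Hbb-y and Hbq1a had at most 5 reads in any. Hbb-bh1, an embryonic beta globin gene, had 28 reads in the CD38-positive library of pair 2 and at most 3 in each of the others.

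**Figure D1:**
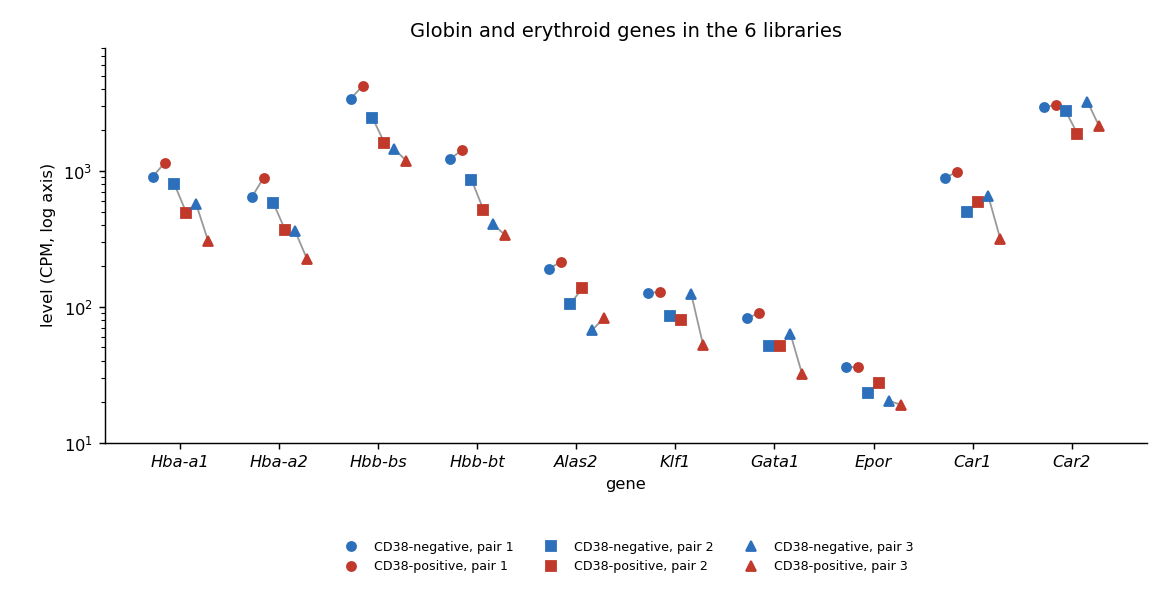
Level of each of the 10 genes in CPM on a log axis, by gene; red is CD38-positive, blue CD38-negative, the marker shape gives the pair and grey lines join partners. The 4 globin genes run from high in pair 1 to low in pair 3, Car2 spans 1868 to 3218 CPM, and the 2 populations overlap for every gene.

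Alas2 (ENSMUSG00000025270, chromosome X, 150547375 to 150570638, plus strand) encodes the erythroid form of the first enzyme of haem synthesis. It had 214, 136 and 82.5 CPM in CD38-positive libraries of pairs 1, 2 and 3 and 189, 105 and 67.3 CPM in their partners. It was the 1 member higher in CD38-positive cells in all 3 pairs, by 0.18, 0.37 and 0.29 on the log2 scale. The fitted log2 fold change of 0.28 (SE 0.18, 95% interval -0.11 to 0.67) did not pass the test (edgeR adjusted p = 0.929; 0.764 to 1 over its 11 alternatives). The pairs differed far more, and 94.2% of the sum of squares of its log2 CPM lay between pairs. Adult globin reads per Alas2 read were 35.7, 21.8 and 24.8 in CD38-positive and 32.4, 44.4 and 41.1 in CD38-negative libraries.

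Alas1, the form of the same enzyme that is made in all cells, was more abundant in reads, with 0.176 to 0.556 Alas2 reads per Alas1 read. Of the 9 haem synthesis genes, 4 had a positive and 5 a negative fitted value, and 0 passed the test. Their median log2 fold change was -0.05, against 0.00 over all genes tested. The medians in pairs 1, 2 and 3 were 0.02, 0.37 and -0.37, with 5, 7 and 1 of the 9 genes higher in CD38-positive cells. In pair 2 the haem enzyme genes Alas1 and Fech were higher in CD38-positive cells by 0.63 and 0.60, while the 4 globins stood between -0.73 and -0.61. Urod was with the globins in that pair, at -0.60. Cpox was lower in all 3 pairs, at -0.40, -0.18 and -0.56 (edgeR unadjusted p = 0.13).

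**Figure D2:**
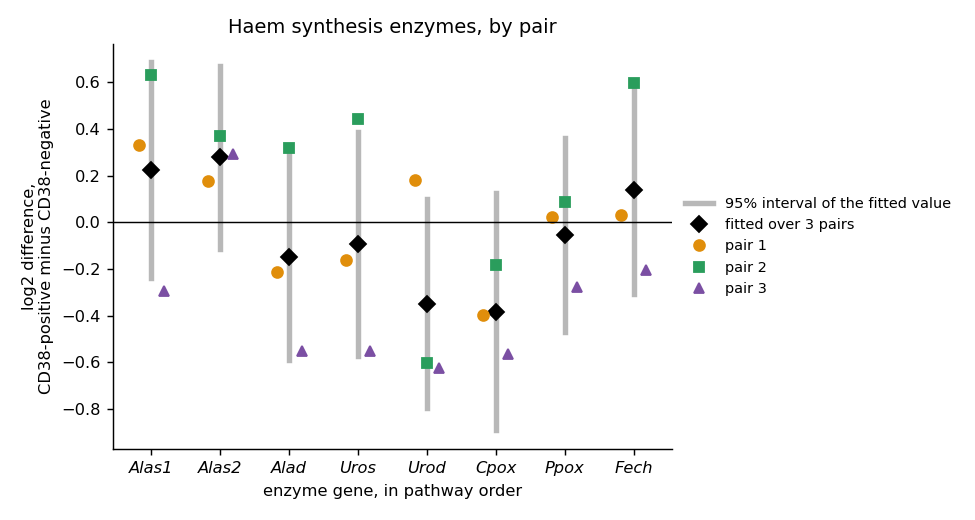
Log2 difference between populations for 8 of the haem synthesis genes, in pathway order after the Alas1 and Alas2 isoenzymes; coloured markers are single pairs, black diamonds the fitted value and grey bars its 95% interval. Pair 2 lies above 0 for 6 of these genes and pair 3 below 0 for 7, and each interval includes 0.

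Klf1 (ENSMUSG00000054191, chromosome 8, 84901928 to 84905291, plus strand), a zinc finger factor required for adult beta globin transcription, had 129, 79.6 and 51.9 CPM in CD38-positive and 125, 85.4 and 123 CPM in CD38-negative libraries. The difference came from pair 3, where it was -1.25 on the log2 scale, against 0.04 and -0.10 in pairs 1 and 2. Its fitted log2 fold change of -0.43 (SE 0.24, 95% interval -0.95 to 0.09) had the smallest p-value of the 10 genes, 0.0973 unadjusted and 0.926 adjusted in edgeR. Without pair 3 the value was -0.03.

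Gata1 (ENSMUSG00000031162, chromosome X, 7959260 to 7978071, minus strand), the master regulator of erythroid and megakaryocytic genes, had 89.3, 51.4 and 31.7 CPM in CD38-positive and 82.1, 51.5 and 63.3 CPM in CD38-negative libraries. Pair 2 had equal levels, and pair 3 had -0.995 on the log2 scale. The fitted value was -0.29 (95% interval -0.79 to 0.21; edgeR adjusted p = 0.932). Klf1 had 1.44 to 1.94 reads per Gata1 read, lower in CD38-positive cells in 3 of 3 pairs, a ratio that was not tested. Gata1 reads per read of Gata2, the GATA factor of stem and progenitor cells, spanned 0.37 to 2.52, with the extremes in the CD38-positive libraries of pairs 3 and 1.

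Epor (ENSMUSG00000006235, chromosome 9, 21958897 to 21963506, minus strand), the erythropoietin receptor gene, had the lowest level per length of the 10. It had 35.8, 27.6 and 18.9 CPM in CD38-positive and 36.0, 23.1 and 20.2 CPM in CD38-negative libraries. Partners were close in every pair, and 95.5% of its sum of squares lay between pairs. Its log2 fold change was 0.05 (95% interval -0.41 to 0.51; edgeR adjusted p = 0.982). Pair means were 35.9, 25.3 and 19.6 CPM. The globins, Alas2, Gata1 and Car1 had the same order of pair means, and Klf1 and Car2 did not.

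Car1 (ENSMUSG00000027556, chromosome 3, 14766216 to 14808368, minus strand), a carbonic anhydrase typical of early erythroid progenitors, had 974, 588 and 315 CPM in CD38-positive and 886, 500 and 647 CPM in CD38-negative libraries. It was higher in CD38-positive cells in pairs 1 and 2, by 0.14 and 0.24, and lower in pair 3, at -1.04. The fitted log2 fold change was -0.22 (95% interval -0.75 to 0.32). Without pair 3 it was 0.19.

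Car2 (ENSMUSG00000027562, chromosome 3, 14886273 to 14900770, plus strand), the carbonic anhydrase of red cells that many other marrow cells make too, had 3054, 1868 and 2112 CPM in CD38-positive and 2913, 2740 and 3218 CPM in CD38-negative libraries. It varied least of the 10 genes, 1.72-fold between libraries, and did not follow the order of the pairs, with means of 2983, 2304 and 2665 CPM. Its log2 fold change was -0.36 (SE 0.22, 95% interval -0.84 to 0.11; edgeR adjusted p = 0.926). The share of its sum of squares between populations, 39.9%, was the highest of the 10, against a median of 11.7% over all genes. Epor had the lowest of the 10, 0.456%. The pair differences of Car2 were not of 1 sign, at 0.07, -0.55 and -0.61 in pairs 1, 2 and 3. Of the 13 carbonic anhydrase genes, 10 passed the filter, and 0 passed the test. Car3, at 2.77 to 10.2 CPM, had -1.04 (edgeR unadjusted p = 0.0113, adjusted p = 0.925).

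Set side by side per length, the order of the mean levels was Hbb-bs, Car2, Hbb-bt, Hba-a1, Hba-a2, Car1, Alas2, Klf1, Gata1 and Epor, from 3782 down to 15.3 CPM per kilobase of transcript. Hbb-bs was above Car2 in 6 of 6 libraries. Car2 was above Hbb-bt in 4 of 6 and Hbb-bt above Hba-a1 in 5 of 6, so these neighbours were not separated beyond their spread. Alas2 (64.9 CPM per kilobase) and Klf1 (64.7) were level, with Alas2 higher in 4 of 6. Klf1 was above Gata1 and Gata1 above Epor in 6 of 6. The levels of Hba-a1, Hba-a2, Hbb-bs and Hbb-bt per length carry the uncertainty of shared reads.

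With the pair as a replicate block, 0 of the 10 genes were called at the adjusted 0.05 level by edgeR, where 0.0135% of the 14785 tested genes were. At an unadjusted p under 0.05 there were also 0 of 10, against 5.08% of all genes (2.61% lower in CD38-positive libraries, 2.47% higher). Leaving the replicate block out, 2.82% of genes and again 0 of 10 members were below it. DESeq2, limma-voom and edgeR without the replicate block called 0 of 10 as well. The populations did not overlap for 0 of the 10 genes, against 6.53% of all genes. The same sign in all 3 pairs was seen for 1 of 10, Alas2, against 24.5% of all genes (13.2% higher in all 3). The 95% intervals of the 10 fitted values ran from -0.95 to 0.67 on the log2 scale. In simulated data for the 14785 genes, 51 of 100 genes changed 2-fold and 96 of 100 changed 4-fold were called. Also called were 7 unchanged genes. The simulation held many changed genes, whereas 2 genes passed in the measured data. The adjusted threshold was therefore easier to pass in the simulation, and these rates do not give the power for the members.

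**Figure D3:**
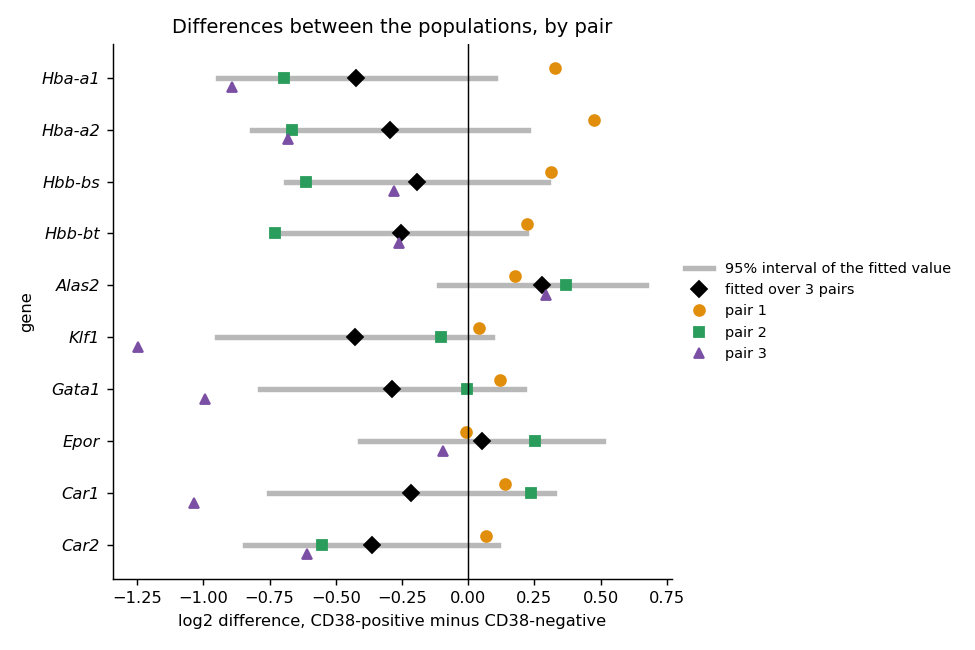
Log2 difference, CD38-positive minus CD38-negative, for the 10 genes; coloured markers are single pairs, black diamonds the fitted value over 3 pairs and grey bars its 95% interval. Each interval includes 0, pair 1 lies above 0 for 9 of 10 genes, and in pair 3 Klf1, Gata1 and Car1 lie near -1 while Alas2 lies at 0.29.

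The differences between partners were not alike in the 3 pairs. In pair 1, 9 of 10 members were higher in CD38-positive cells, the globins by 0.22 to 0.48 and Klf1, Gata1, Car1 and Car2 by 0.04 to 0.14. In pair 2, 3 of 10 were higher (Alas2, Epor and Car1, by 0.37, 0.25 and 0.24), and the 4 globins stood between -0.73 and -0.61, with Klf1 at -0.10. In pair 3, 1 of 10 was higher (Alas2), and Klf1, Gata1 and Car1 stood at -1.25, -0.995 and -1.04, the alpha globins at -0.89 and -0.68 and the beta globins at -0.28 and -0.26. Car2 stood at -0.55 in pair 2 and -0.61 in pair 3, so it was low in pair 2 with the globins and not level with Klf1 and Gata1. Each of these is 1 library against 1, with no replicate. In the same pairs the granulocyte and monocyte list had median differences of 0.48, -0.08 and -0.39, with 14, 6 and 2 of its 14 genes higher in CD38-positive cells, and its part was not tested. Mitochondrially encoded genes took 4.28% and 3.68% of counts in pair 1, 1.44% and 3.74% in pair 2 and 2.69% and 4.43% in pair 3 (CD38-positive first). That is 0.22, -1.38 and -0.72 on the log2 scale, with the same sign in each pair as the adult globin share (0.19, -0.72 and -0.30), and the part of this in the globin values was not tested.

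Lists of other erythroid genes were compared in the same way. Over all 14785 tested genes, 7404 had a positive and 7381 a negative fitted value, while pairs 1, 2 and 3 had 7435, 7196 and 7774 genes above 0. Of 22 late erythroblast genes, 21 matched a row (all but Ahsp) and were tested, and 0 passed. Their median log2 fold change was -0.14, with pair medians of -0.01, 0.09 and -0.34, and without Alas2 it was -0.17. Of the 21 fitted values 16 were negative, and 10, 12 and 6 of 21 genes were above 0 in pairs 1, 2 and 3. Among the most abundant were Bnip3l, a mitophagy receptor gene, at 191 to 261 CPM, Slc4a1, the band 3 anion exchanger of the red cell membrane, at 64.4 to 239 CPM, and Alas2. In pair 2 the membrane genes Slc4a1, Epb42 and Sptb were higher in CD38-positive cells, by 0.52, 0.70 and 0.56. Trim58 and Xpo7 of the same list stood at -2.71 and -1.99 there. The value of Trim58 rests on few reads, 7 in the CD38-positive and 58 in the CD38-negative library. In pair 3 the list ran in both directions, with Rhag, Epb42 and Trim10 at -0.90, -0.77 and -0.96 and Xpo7, Alas2 and Bnip3l at 0.37, 0.29 and 0.14. The summed share of the list without Alas2 ran from 0.0914% to 0.16%, a range of 1.75-fold, against 3.17-fold for the adult globins.

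Of 19 early erythroid progenitor genes (which include Klf1, Gata1, Epor, Car1 and Car2), 0 passed the test, 5 had a positive and 14 a negative fitted value, and the median was -0.24. Pair medians were -0.01, 0.07 and -0.73, and without the 5 members they were -0.06, 0.09 and -0.68. In pair 3, 2 of 19 were higher in CD38-positive cells. Ermap, a membrane protein of erythroid cells, was lower in all 3 pairs, at -0.41, -0.99 and -0.85 (log2 fold change -0.75, edgeR unadjusted p = 0.00248, adjusted p = 0.764). Aqp1, a water channel of red cells, had -0.74 (edgeR unadjusted p = 0.0145, adjusted p = 0.925), with 0.03 in pair 1 and -1.51 in pair 2. Apoe, at 374 to 686 CPM, and Ctse, at 121 to 330 CPM, were the most abundant after Car1 and Car2.

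Of 20 erythroid and megakaryocyte regulators, 0 passed the test, and 16 had a negative fitted value, with a median of -0.24. In the 3 pairs the medians were -0.16, -0.26 and -0.15. Lower in all 3 pairs were 7 of 20, against 11.3% of all genes. Sox6, which represses embryonic globin genes, was 1 of these, at -0.71, -1.20 and -0.70 (log2 fold change -0.88, edgeR unadjusted p = 0.00249, adjusted p = 0.764). The populations did not overlap for 1 of the 20 genes, Sox6, against 6.53% of all genes, a share near that background. Nfe2, a factor that acts at the globin locus control regions, was the most abundant, at 324 to 463 CPM with -0.16. Fli1, Myb and Ikzf1 followed, with log2 fold changes of -0.01, -0.02 and -0.25.

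**Figure D4:**
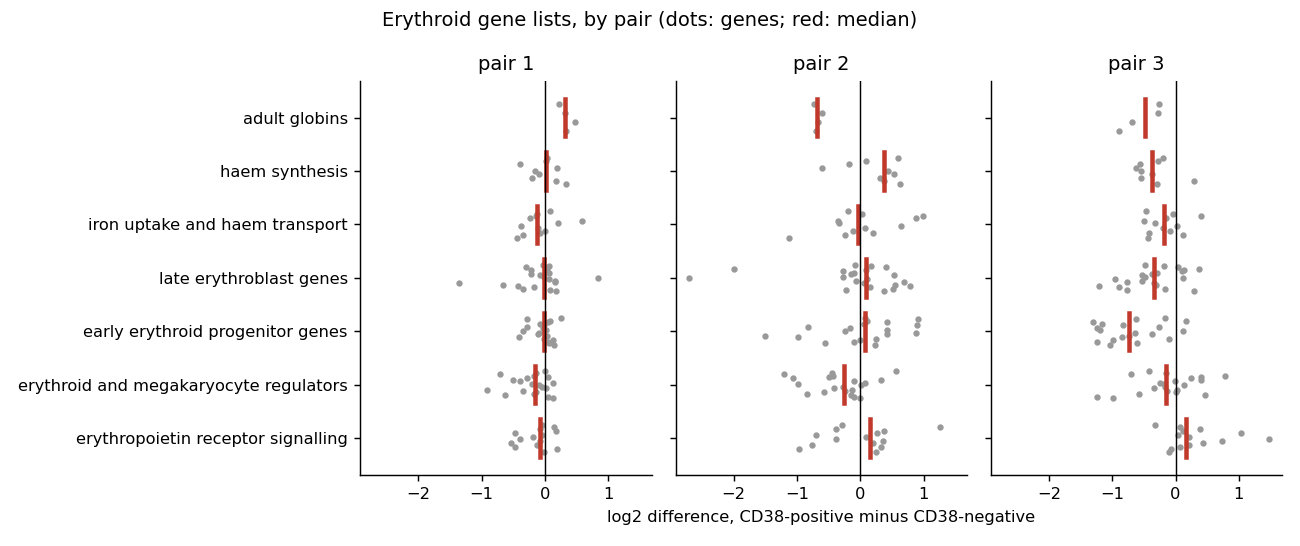
Log2 difference between populations of single genes (grey dots) and list medians (red bars) for 7 erythroid lists in pairs 1, 2 and 3. Adult globins have medians of 0.32, -0.68 and -0.48, early progenitor genes -0.01, 0.07 and -0.73, and haem synthesis genes 0.02, 0.37 and -0.37.

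Genes of iron uptake and haem transport had a median of -0.09, with 0 of 12 past the test. Tfrc, the transferrin receptor that brings iron into erythroblasts and dividing cells, was lower in all 3 pairs, at -0.44, -1.12 and -0.43 (log2 fold change -0.66, edgeR unadjusted p = 0.0055, adjusted p = 0.893). The ferritin genes Fth1 and Ftl1 were the most abundant, at 1854 to 2083 and 674 to 1090 CPM, and had -0.05 and -0.19. Of 14 genes of erythropoietin receptor signalling, 8 had a positive fitted value, the median was 0.04 and 0 passed. Ptpn6, a phosphatase that dampens the receptor, had 286 to 449 CPM and a log2 fold change of 0.22. Lyn, a kinase of the same pathway, had 0.49, with 1.27 in pair 2 and 0.14 and 0.07 in the others.

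Shares of other cell types' markers are set beside the globins. Their lowest and highest summed shares were 0.122% and 0.231% for mast cell, basophil and eosinophil genes, 0.0555% and 0.105% for megakaryocyte and platelet genes, 0.0561% and 0.112% for macrophage genes and 0.102% and 0.333% for B and plasma cell genes. In the mast cell, basophil and eosinophil list, Prg2 and Epx, granule protein genes of eosinophils, had 98.3% and 98.7% of their sum of squares between pairs, and Prg2 ran from 410 to 1173 CPM. Median log2 fold changes were -0.05, 0.01, 0.19 and -0.11 in these lists, with 0 genes past the test in each. The median of the B and plasma cell list does not show its antibody genes: Jchain, Igkc and Ighm had -4.26, -3.07 and -1.19 (edgeR adjusted p = 0.0701, 0.125 and 0.695), with Jchain at the level of 3 reads in the CD38-positive library of pair 2. The summed share of that list was lower in CD38-positive cells in 3 of 3 pairs, by log2 differences of -0.63, -0.84 and -1.47. Vwf and Selp, genes of megakaryocytes and platelets, had 1.15 and 0.99 (edgeR adjusted p = 0.293 and 0.888). HSC markers took 0.0773% and 0.106% of counts in pair 1, 0.112% and 0.256% in pair 2 and 0.197% and 0.157% in pair 3 (CD38-positive first), and they were lowest in pair 1, where the globins were highest. In edgeR, 5.08% of all genes had an unadjusted p under 0.05. Below it were 4 of 12 B and plasma cell genes, 2 of 12 macrophage genes and 2 of 14 megakaryocyte and platelet genes. Also below it were 5 of 12 HSC markers and 0 of 12 mast cell, basophil and eosinophil genes. The macrophage genes were Siglec1 and Mertk, at 1.61 and 0.91, and Siglec1 had only 3 to 46 reads a library. Among the HSC markers 1 was higher (Ctnnal1, 0.46) and 4 were lower in CD38-positive cells (Kit, Ly6a, Hlf and Meis1, at -0.90, -0.50, -0.79 and -0.63). These 4 were lowest in pair 2, at -2.34, -1.25, -1.76 and -1.22. They stood at -0.66, -0.10, -0.38 and -0.66 in pair 1 and at 0.24, -0.17, -0.26 and -0.01 in pair 3. Ctnnal1 had 0.21, 0.29 and 0.87 in pairs 1, 2 and 3. The median log2 fold change of the 12 HSC markers was -0.24, and -0.01 without pair 2. What part the makeup of the sorted cells has in the globin values was not tested.

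**Figure D5:**
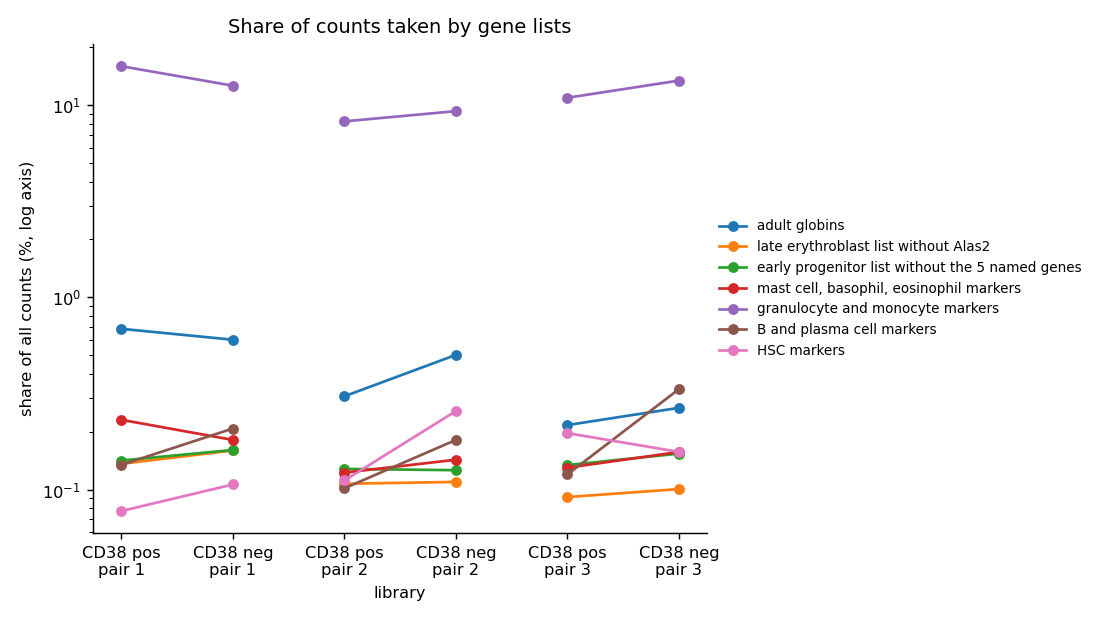
Share of all counts (percent, log axis) taken by the adult globins and 6 gene lists in each library, with lines joining the libraries of a pair. Adult globins run from 0.686% in the CD38-positive library of pair 1 to 0.217% in that of pair 3, and granulocyte and monocyte genes lie between 8.23% and 15.9%.

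The spread of the members between libraries was larger than that of most genes for the globins. The SD of log2 CPM over 6 libraries was 0.69, 0.71, 0.73 and 0.86 for Hba-a1, Hba-a2, Hbb-bs and Hbb-bt, at the 88.3, 89.7, 90.3 and 94.1 percentiles of all tested genes. Alas2, Car1, Gata1 and Klf1 were at the 87.1, 82.2, 77.7 and 75.5 percentiles, Epor at 59.6 and Car2 at 43.4. The share of the sum of squares between pairs was 70.5%, 77.8%, 89.6% and 91.2% for Hba-a1, Hba-a2, Hbb-bs and Hbb-bt. It was 95.5% for Epor, 94.2% for Alas2, 67.0% for Car1, 65.7% for Gata1, 41.5% for Klf1 and 31.9% for Car2. The median over all genes was 48.4% between pairs and 11.7% between populations. There are 3 pairs and 2 populations, so part of the larger share between pairs comes from the design. For the globins, 4.28% (Hbb-bt) to 25.5% (Hba-a1) of all genes had a higher share between pairs. Pair 1 exceeded pair 3 by 2.34-fold for Hba-a1, 2.62-fold for Hba-a2, 2.89-fold for Hbb-bs, 3.55-fold for Hbb-bt and 2.69-fold for Alas2. For Car1, Epor, Gata1, Klf1 and Car2 it did so by 1.93-fold, 1.83-fold, 1.80-fold, 1.45-fold and 1.12-fold.

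Genes whose levels were most like those of a member were taken by the Pearson correlation of log2 CPM over the 6 libraries, among 13557 genes with a mean of at least 1 CPM, as a description with no test; the libraries come in pairs. Among those most like Hba-a1 were Ccdc88b (r = 0.998) and Hba-a2 (0.990), and the 3 most like Alas2 were Cd44 (0.989), Ifi30 (0.989) and S100a11 (0.988). For Gata1 they were Trim10 (0.992), Dock8 (0.991) and Car1 (0.991), so that 1 late erythroblast gene and 1 member were among them. For Klf1 they were 1700006J14Rik (0.989), Gm15915 (0.988) and Xlr (0.987), and for Car2 Stfa1 (0.993), Pfdn6 (0.993) and Pdcd2l (0.992).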

How the data were processed

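Bulk RNA sequencing was done on 6 libraries, 3 per population. The deposited values are raw read counts per Ensembl gene from the authors, 1 table per library; cutadapt, STAR, HTSeq 0.6.1p1 and the builds GRCm38 and mm10 are named in the submitters' processing notes. The strand setting and annotation release are not given in the sources used here. Every row names a gene. Symbols matched 49326 of 49585 identifiers; positions and transcript lengths (longest protein-coding transcript) are from GENCODE M21 (GRCm38).

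Genes kept by filterByExpr (14785) were scaled by TMM and tested in edgeR 4.0.16 (R 4.3.3) by the quasi-likelihood F-test over all 6 libraries, with pair as a replicate block, and p-values were adjusted by Benjamini-Hochberg over all genes (threshold 0.05). CPM use TMM-scaled totals; pair differences are of log2 CPM (prior count 2). Pairs come from the design text, and deviations of partners from their population means correlated at 0.34, 0.12 and 0.24. Members and lists were chosen with earlier results of these data known. Genes named were the members, list genes with an unadjusted p under 0.05 and up to 4 of the highest level per list; others named with pair values were chosen after these were seen, and some genes the rule names are not reported here. Alternatives were no block, DESeq2 1.42.0, limma-voom (limma 3.58.1), other scalings and filters, summed paralogues and leaving out a pair. The fit was tested on simulated data.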

Additional observations from a re-analysis of the deposited data

How the results depend on the processing

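With the replicate block, without it, with DESeq2, limma-voom, other scalings and filters, summed paralogues or any pair left out, 0 of the 10 members passed the threshold. Over all genes, 2 passed in edgeR with the replicate block; 0 passed without the replicate block (417 at an unadjusted p under 0.05) and 0 with unscaled totals (595). DESeq2 gave 11, DESeq2 size factors in edgeR 7, a mean of at least 10 counts 13, no filter 80, and leaving out a pair 2 to 41; the cause was not tested. Of the genes in all lists, 0 passed; Vwf did with DESeq2, 1 did with DESeq2 size factors in edgeR (Jchain), 5 with no filter (Vwf, Kit, Jchain, Igkc and Ighm), and 1 to 4 without a pair (Vwf, Kit and the same antibody genes), and no erythroid list gene did in any of these.

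Leaving out a pair changed the sign of Hbb-bs (from -0.45 to 0.00; 0.0042 without pair 2), Epor (from -0.06 to 0.12; -0.063 without pair 2), Gata1 (from -0.50 to 0.06; 0.059 without pair 3) and Car1 (from -0.46 to 0.19; 0.186 without pair 3). The values of Klf1 ran from -0.67 to -0.03, of Hba-a1 from -0.79 to -0.19 and of Alas2 from 0.22 to 0.33. At an unadjusted p under 0.05 there were 3 members without pair 1 (8.06% of all genes), 3 without pair 2 (3.49%) and 1, Hba-a1, with no filter (5.06%). The difference in adult globin share was -0.0539 percentage points and ran from -0.123 to 0.0172 without a pair. Each scaling moved the median of all genes by less than 0.1. The floor of 3 counts was a chosen value, and a detection limit was not measured.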
